A study of Mus musculus with 9 samples.

Results

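The 9 genes described here encode cytokines that dendritic cells make, with 1 receptor chain that presents a cytokine: Il12a, Il12b, Il27, Ebi3, Il15, Il15ra, Il1b, Il18 and Il10. They were taken by name from a list that was chosen with earlier results of these data known. All 9 were present among the 53458 genes to which the deposited transcripts were summed. Of the 24133 genes with enough counts to be tested, 8 were members; Il12a did not reach the count filter. RNA had been sequenced from type 1 conventional dendritic cells (cDC1), which present captured antigen to CD8 T cells, of mouse peri-pancreatic lymph nodes. There were 3 libraries each for nodes draining a healthy pancreas (Healthy), a pancreas with intraepithelial precursor lesions (PanIN) and a pancreas with a tumor (Tumor). KPC, which the series title names, is a genetically engineered mouse model of pancreatic cancer. The exact alleles, the Cre driver, the strain, the ages, any pooling of animals and the genotype of the Healthy mice are not given in the labels. Nothing in the labels says that libraries of a stage came from separate animals, so p-values here reflect the spread among the libraries alone, and that spread may be technical. Libraries within a stage are numbered in deposition order, and the numbers pair nothing. Healthy 1, PanIN 1 and Tumor 1 share a code in their titles whose meaning the labels do not give. Each of the other libraries has a code of its own.

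Depth ran from 32150281 to 68934430 estimated counts per library. The 10 cDC1 marker genes were all detected in every stage, with a summed level of 3827 to 13195 CPM (counts relative to library size, scaled by TMM factors). The libraries differed in the genes of mature, migratory dendritic cells. The migration receptor of mature dendritic cells, Ccr7, was at 57.2 CPM in Healthy 2 and 419 CPM in Healthy 3, against 666 to 2602 CPM in the other 7 libraries. Healthy 2 also had the highest level of Xcr1, the chemokine receptor that defines cDC1, at 1081 CPM against 249 to 710 CPM elsewhere. The fold changes over Healthy of each tested member are therefore also given without Healthy 2. In bulk RNA, fewer cells of a type or state and less RNA per cell cannot be told apart.

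Some of these cytokines work in pairs of chains or with a presenting chain. For those, a single transcript alone does not describe the cytokine. Il12b encodes the chain shared by IL-12 and IL-23; it pairs with the product of Il12a to form IL-12, which drives interferon-gamma production by T and NK cells, and with that of Il23a to form IL-23. Ebi3 encodes the chain that pairs with the product of Il27 to form IL-27. IL-15 is held at the surface of dendritic cells by IL-15 receptor alpha, the product of Il15ra, and presented to NK cells and memory CD8 T cells. IL-1 beta and IL-18 are made as precursors that caspase-1 cleaves after an inflammasome assembles, and IL-10 restrains dendritic cell activation. cDC1 are known as a main source of IL-12 in lymphoid tissue and tumors, and transcription of these genes is known to follow Toll-like receptor, CD40 and interferon signals through NF-kappaB, AP-1 and interferon regulatory factors.

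The sequence just before the start of 3 members is shown for reference to these factors: Il12b and Il1b, whose levels carry the comparisons that follow, and Ebi3, the member whose window held an NF-kappaB match. Sequences are from RefSeq (GRCm38.p6), run 5′ to 3′ on the gene's strand and end at the base before the start. Capitals mark motif matches. The 3 regions are chr11:44399813-44400062 (plus strand) for Il12b, chr2:129371140-129371389 (minus strand) for Il1b and chr17:55952373-55952622 (plus strand) for Ebi3.
Il12b: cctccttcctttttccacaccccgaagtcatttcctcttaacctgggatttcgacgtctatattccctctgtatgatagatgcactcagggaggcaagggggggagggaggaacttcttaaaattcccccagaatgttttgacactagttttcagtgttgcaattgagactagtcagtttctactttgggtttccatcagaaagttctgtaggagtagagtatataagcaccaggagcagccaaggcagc
Il1b: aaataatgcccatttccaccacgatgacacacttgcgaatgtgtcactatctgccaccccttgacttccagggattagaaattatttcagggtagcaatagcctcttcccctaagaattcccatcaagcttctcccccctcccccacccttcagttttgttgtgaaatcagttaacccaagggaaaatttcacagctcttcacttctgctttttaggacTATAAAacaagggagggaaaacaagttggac
Ebi3: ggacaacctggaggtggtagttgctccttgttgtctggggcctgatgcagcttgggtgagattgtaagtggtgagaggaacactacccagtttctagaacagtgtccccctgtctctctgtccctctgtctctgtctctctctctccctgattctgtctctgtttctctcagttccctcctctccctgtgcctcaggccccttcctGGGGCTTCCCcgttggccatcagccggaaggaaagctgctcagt
The table of windows held 6 of the 9 members, in 8 windows, and no entry for Il15, Il27 or Il10. Windows of 300 bases, 250 before and 50 after each start, were searched on both strands. The core of the interferon-stimulated response element (GAAA, any 2 bases, GAAA) matched no member window, where 3.44% of all 32851 windows held it. The NF-kappaB consensus matched Ebi3 alone, against 8.46% of all windows. Its match beginning 44 bases before the start reads on both strands and so overlaps itself, and another begins at base 15 after the start. The AP-1 site (TGANTCA) matched 1 window of Il15ra and 7.81% of all windows. The TATA box (TATAAA) matched Il1b, beginning 31 bases before the start on the gene's own strand, and Il18 on the opposite strand, against 13.6% of all windows. The Il12b sequence is all in lower case because none of the 4 motifs matched it. These are matches of letters in a short window, not binding sites.

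Il12b (ENSMUSG00000004296, GRCm38 chromosome 11, 44400063 to 44414033) encodes the chain shared by IL-12 and IL-23. Its level was 81.7, 6.30 and 26.9 CPM in Healthy 1 to 3, 87.4, 51.7 and 48.4 CPM in PanIN, and 136, 71.6 and 129 CPM in Tumor. Healthy 2 was far below every other library, Tumor 1 and Tumor 3 were above all others, and Tumor 2 lay below Healthy 1, so the stages overlapped. The stage means were 38.3 ± 39 CPM for Healthy, 62.5 ± 21.7 CPM for PanIN and 112 ± 35.4 CPM for Tumor (SD, n = 3). In the edgeR fit, with p-values adjusted by Benjamini-Hochberg over all genes, the log2 fold change of Tumor over Healthy was 1.55 (SE 0.65, adjusted p = 0.24). PanIN over Healthy stood at 0.71 (SE 0.64, adjusted p = 0.769) and Tumor over PanIN at 0.85 (SE 0.64, adjusted p = 1). Without Healthy 1 the Tumor over Healthy value was 2.76 (adjusted p = 0.0911) and that of PanIN over Healthy 1.91, and without Healthy 2 they were 1.05 and 0.21. Limma-voom with sample weights gave 0.68 for Tumor over Healthy and -0.34 for PanIN over Healthy. The 3 stages were thus in the order Healthy, PanIN, Tumor by mean, with no neighbours set apart beyond their spread.

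The partner chain of IL-12 was nearly absent. Il12a (ENSMUSG00000027776, chromosome 3, 68690644 to 68698547) had 2, 1 and 2 estimated counts in the Healthy libraries, 0, 16 and 0 for PanIN and 6, 0 and 0 for Tumor. A count of 0 allows up to 3 counts, which is 0.0366 to 0.0873 CPM at these depths, for counting error only. Only PanIN 2 and Tumor 1 exceeded 3 counts, and no fold change is given. On the scale of TPM, which divides counts by transcript length, Il12b ran from 2.23 to 54.4 while Il12a did not exceed 0.303. Il23a, the chain that completes IL-23, ran from 0.0525 to 0.192 TPM. The log2 ratio of Il12b to Il12a, with 0.1 TPM added to both, was 6.18 ± 1.84 for Healthy, 7.45 ± 1.34 for PanIN and 8.35 ± 0.64 for Tumor (SD, n = 3). Across the stages this ratio gave p = 0.229 in an exact permutation test over all assignments of the libraries to stages, and the ratio of Il12b to Il23a gave p = 0.207 (both 0.32 after adjustment over 7 ratios).

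**Figure D1:**
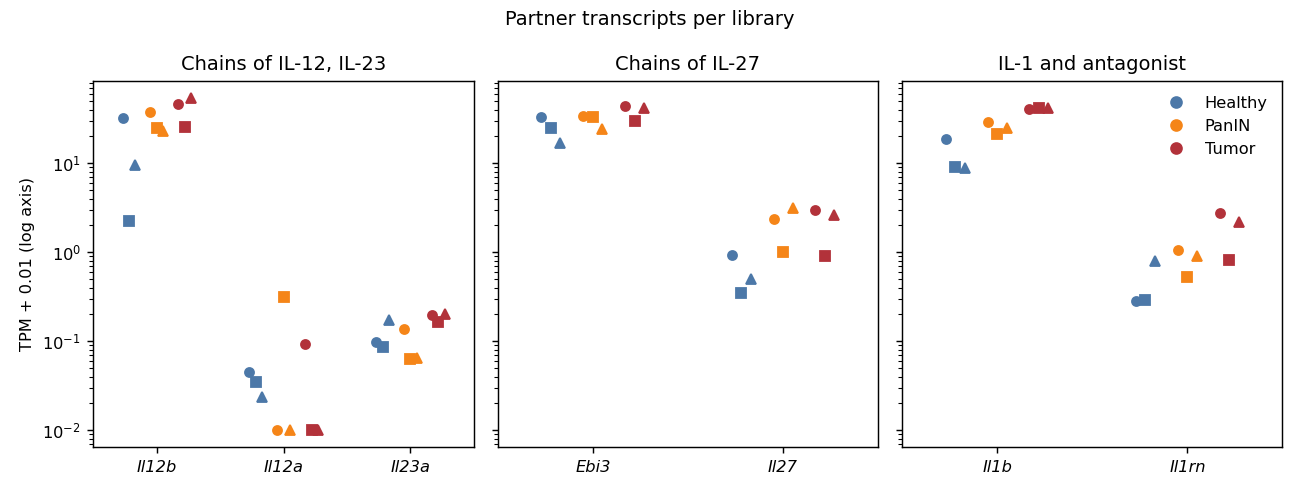
TPM plus 0.01 (log axis) of the chains of IL-12 and IL-23, the chains of IL-27, and Il1b with its antagonist Il1rn, with 1 point per library (circle, replicate 1; square, replicate 2; triangle, replicate 3) and colour for stage. Points at 0.01 are libraries listed at 0 for Il12a, which did not exceed 0.303 TPM while Il12b reached 54.4 TPM; Ebi3 lay above Il27 in every library.

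Ebi3 (ENSMUSG00000003206, chromosome 17, 55952640 to 55957022) had the lowest biological coefficient of variation among the members. It stood at 65.4, 58.0 and 36.5 CPM in Healthy, 62.0, 54.7 and 38.7 CPM in PanIN and 100, 64.7 and 74.9 CPM in Tumor. All 3 Tumor libraries lay above all 3 PanIN libraries, but Tumor 2 lay just below Healthy 1. Tumor over PanIN differed by 0.63 on the log2 scale (SE 0.28, adjusted p = 1) and Tumor over Healthy by 0.59 (SE 0.28, adjusted p = 0.296) by edgeR. PanIN over Healthy was -0.04 (SE 0.28, adjusted p = 0.98), and 0.30 on the log2(TPM + 1) scale, where the median of all genes moved from -0.10 to 0.11. Without Healthy 2 the Tumor and PanIN values over Healthy were 0.65 and 0.03.

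Il27 (ENSMUSG00000044701, chromosome 7, 126589010 to 126594941), the other chain of IL-27, was a low transcript. Its level was 1.48, 0.63 and 0.878 CPM in Healthy, 3.54, 1.37 and 4.28 CPM in PanIN, and 5.58, 1.59 and 4.03 CPM in Tumor. Every Tumor library exceeded every Healthy library, by a narrow margin for Tumor 2 over Healthy 1, and PanIN 2 lay within the Healthy range. The log2 fold change of Tumor over Healthy was 1.91 (SE 0.62, adjusted p = 0.169) by edgeR, and DESeq2 gave an adjusted p of 0.041. PanIN over Healthy was 1.62 (SE 0.62, adjusted p = 0.457), and Tumor over PanIN was 0.29 (SE 0.60, adjusted p = 1), which turned to -0.03 on log2(TPM + 0.1). Without Healthy 2 the Tumor and PanIN values over Healthy were 1.67 and 1.39, and limma-voom gave 1.31 and 0.54. On the TPM scale Ebi3 ran from 16.9 to 44.2 and Il27 from 0.335 to 3.10. The log2 ratio of Ebi3 to Il27 was 5.24 ± 0.53 for Healthy, 3.87 ± 1 for PanIN and 4.24 ± 0.58 for Tumor (SD, n = 3; exact permutation p = 0.164, adjusted 0.32). Il27 is overlapped on the opposite strand by Apobr, at 83.3 to 260 CPM, and Ebi3 by the antisense gene Gm16712, at 0.945 to 6.96 CPM. The labels do not say whether the quantification used strand, so reads of these genes may be shared.

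**Figure D2:**
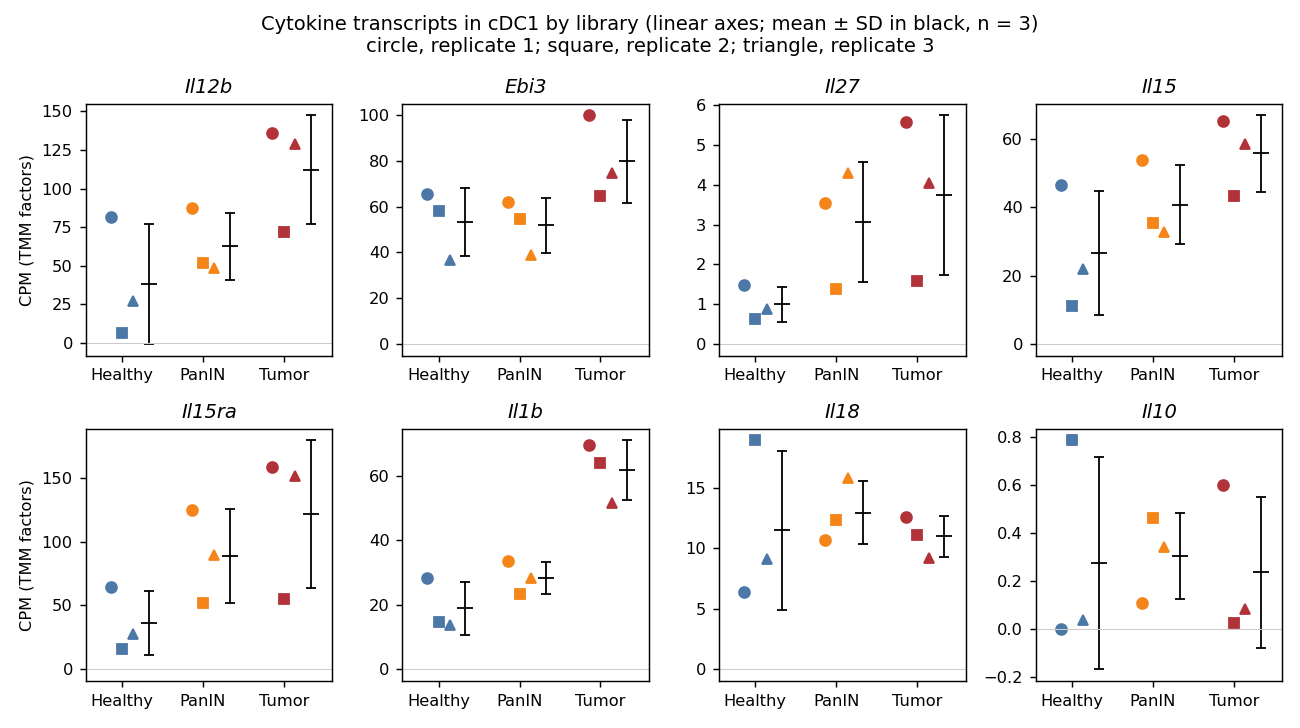
CPM with TMM factors (linear axes) of the 8 members that passed the count filter, 1 point per library, coloured by stage, with black bars for the mean ± SD of 3 libraries. The 3 Tumor points of Il1b lie at 51.4 to 69.5 CPM, above all 6 other libraries, whereas Il12b, Il15 and Il15ra overlap between stages and Healthy 2 is their lowest point.

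Il15 (ENSMUSG00000031712, chromosome 8, 82331632 to 82403222) was at 46.6, 11.2 and 21.9 CPM in Healthy, 53.9, 35.5 and 32.7 CPM in PanIN, and 65.3, 43.4 and 58.4 CPM in Tumor. Healthy 2 and Healthy 3 were the 2 lowest libraries, Healthy 1 lay above 2 of the PanIN libraries and above Tumor 2, and the stages overlapped. The log2 fold changes by edgeR were 0.62 (SE 0.42, adjusted p = 0.66) for PanIN over Healthy, 1.07 (SE 0.42, adjusted p = 0.217) for Tumor over Healthy and 0.45 (SE 0.41, adjusted p = 1) for Tumor over PanIN. Without Healthy 1 the Tumor and PanIN values over Healthy were 1.75 and 1.30, without Healthy 2 they were 0.70 and 0.25, and by limma-voom 0.40 and -0.19. None of the alternative fits called Il15 in any comparison.

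Il15ra (ENSMUSG00000023206, chromosome 2, 11705290 to 11734317), the presenting receptor chain, was at 64.2, 15.9 and 28.1 CPM in Healthy, 125, 51.7 and 89.3 CPM in PanIN, and 158, 54.7 and 151 CPM in Tumor. PanIN 2 and Tumor 2 both lay below Healthy 1, while the other 4 PanIN and Tumor libraries lay above all of Healthy. Tumor over Healthy differed by 1.75 on the log2 scale (SE 0.52, adjusted p = 0.168) by edgeR. DESeq2 gave an adjusted p of 0.0237 and edgeR with no count filter 0.0184. PanIN over Healthy was 1.30 (SE 0.52, adjusted p = 0.457). Without Healthy 1 the Tumor and PanIN values over Healthy were 2.46 and 2.01, without Healthy 2 they were 1.40 and 0.95, and by limma-voom 1 and 0.17. Tumor over PanIN was 0.45 (SE 0.51, adjusted p = 1) and turned to -0.06 on log2(TPM + 1).

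The ratio of Il15ra to Il15 did not differ between stages past the threshold, and its size depended on which transcripts of both genes were counted. Over all transcripts the mean log2 TPM ratio of Il15ra to Il15 was -2.60 ± 0.53, -1.53 ± 0.57 and -1.60 ± 0.08 in the order Healthy, PanIN, Tumor (SD, n = 3; exact permutation p = 0.0607, adjusted 0.32). Over protein-coding transcripts only, a choice made after seeing the data, the ratios were -0.22 ± 0.35, 0.11 ± 0.41 and -0.23 ± 0.85, with an exact permutation p of 0.75. The 2 Il15 transcripts shorter than 300 bases, neither annotated as coding, held 63% to 88.4% of the gene's TPM but 6.53% to 20.7% of its estimated counts. The 4 coding transcripts of Il15 held 8.74% to 26.2% of TPM and 54.3% to 77.3% of counts. TPM divides by length, which weights short transcripts up, so the Il15 TPM of 52.0 to 253 is not a level of coding message. The coding transcripts of Il15 alone ran from 4.55 to 37.5 TPM. For Il15ra, the 11 coding transcripts held 57.9% to 72% of counts in Healthy, 30.4% to 52.3% in PanIN and 37.2% to 59.2% in Tumor. Their TPM was 12.1 ± 9.59, 26.1 ± 11.3 and 31.4 ± 18.5 in the same order (SD, n = 3). The Il15ra fold changes above count all its transcripts and are not those of coding message alone.

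**Figure D3:**
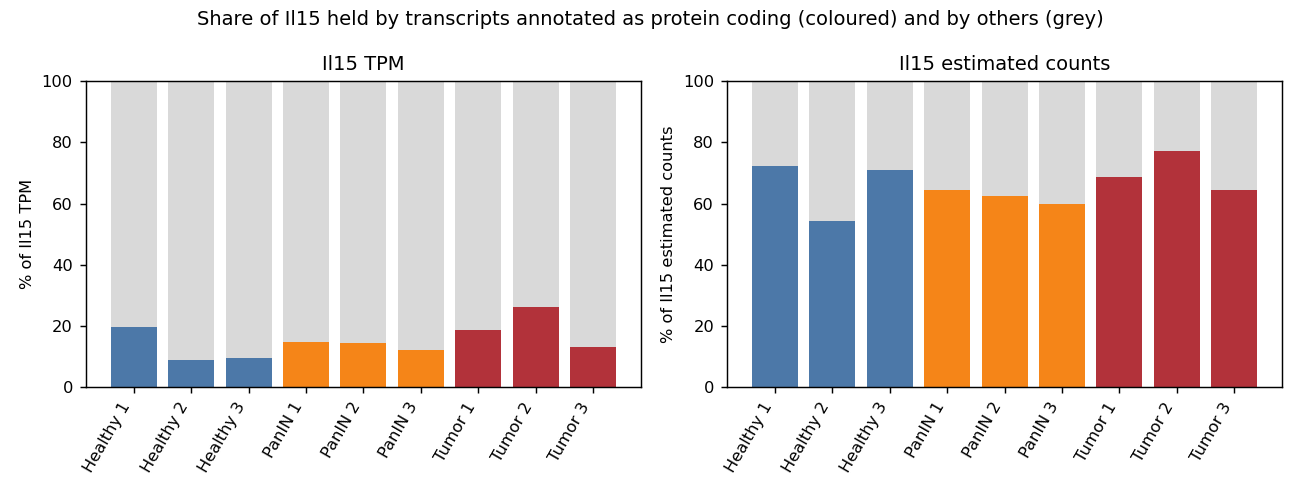
Percent of the Il15 TPM (left) and of the Il15 estimated counts (right) held by the 4 protein-coding transcripts in each library, coloured by stage, with the rest in grey. The coding share was 8.74% to 26.2% of TPM and 54.3% to 77.3% of counts.

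Il1b (ENSMUSG00000027398, chromosome 2, 129364570 to 129371139) was the only member whose 3 Tumor libraries lay above all 6 others. It stood at 28.4, 14.7 and 13.7 CPM in Healthy, 33.5, 23.4 and 28.2 CPM in PanIN, and 69.5, 64.0 and 51.4 CPM in Tumor. Tumor was thus apart from both other stages, and PanIN overlapped Healthy through Healthy 1. The fold of Tumor over Healthy was 3.26 (log2 fold change 1.70, SE 0.30, adjusted p = 0.123 by edgeR), and that of Tumor over PanIN was 2.17 (log2 fold change 1.12, SE 0.29, adjusted p = 1). PanIN over Healthy differed by 0.58 on the log2 scale (SE 0.29, adjusted p = 0.511), by 1 without Healthy 1, by 0.44 without Healthy 2 and by -0.04 in limma-voom. Without Healthy 2 the Tumor over Healthy value was 1.56. Neither Tumor comparison passed the threshold in this fit.

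For Tumor over Healthy, 7 of 20 alternative fits did call Il1b, with adjusted p from 0.000159 to 0.354 over all 20. Those that called it were DESeq2 (adjusted p = 0.000159), edgeR with no count filter (0.00185), limma-voom with sample weights (0.0228), a term for the shared title code (0.0386), a term for Ccr7 (0.0463), and the fits without Healthy 1 (0.0237) and without Healthy 2 (0.0163). The fits without Healthy 3 (0.354) and without Tumor 1 (0.325) were farthest from it. The log2 fold change stayed between 1.20 and 2.12 in all 20. Between Tumor 1 and Healthy 1, which share the title code, the difference was 1.29, and in the other 6 libraries the fitted value was 2.04 (SE 0.32). None of the 20 alternatives called the Tumor over PanIN difference, whose lowest adjusted p was 0.0925.

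The single coding transcript of Il1b held 88.2% to 97.1% of the gene's counts, and its TPM was 9.74 ± 4.79 for Healthy, 16.9 ± 2.20 for PanIN and 31.4 ± 2.47 for Tumor (SD, n = 3). The opposite-strand gene Il1bos was at 0.594 to 1.76 CPM. Monocytes, macrophages and neutrophils also make IL-1 beta. None of the 14 monocyte and macrophage markers was at 0 in all libraries. Their summed level was 426 to 767 CPM in Healthy, 324 to 487 in PanIN and 256 to 354 in Tumor. Of these markers, Cd14, C1qa, C1qb and C1qc were highest in Tumor 1, at 10.2, 7.95, 7.33 and 5.84 CPM. Every other marker of the list was highest in another library. Ccr2 was lowest in Tumor 1, at 42.7 CPM, and the summed level of Tumor 1 was 304 CPM. Of 11 neutrophil markers, Elane was at 0 in all libraries, and the sum was 2.86 to 6.45 CPM in Healthy, 4.54 to 51.2 in PanIN and 3.25 to 17.1 in Tumor. The neutrophil sums of Tumor 1 to 3 were 17.1, 3.25 and 7.26 CPM, and PanIN 2 and PanIN 3 had the highest, at 51.2 and 37.3 CPM. The part of these cells in the Il1b level was not tested.

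Il1rn, the IL-1 receptor antagonist, stood at 1.34 ± 1.07 CPM for Healthy, 1.85 ± 0.812 for PanIN and 5.25 ± 3.04 for Tumor (SD, n = 3), with a log2 fold change of 1.95 for Tumor over Healthy (SE 0.65, edgeR adjusted p = 0.17). The log2 TPM ratio of Il1rn to Il1b was -4.52 ± 1.17, -4.81 ± 0.27 and -4.51 ± 0.88 in the 3 stages (exact permutation p = 0.893, adjusted 0.893). The ratio's spread within Healthy was wider than any difference between the stage means.

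Il18 (ENSMUSG00000039217, chromosome 9, 50554827 to 50581840) showed no common direction across the stages. It was at 6.42, 18.9 and 9.14 CPM in Healthy, 10.7, 12.3 and 15.8 CPM in PanIN and 12.6, 11.1 and 9.24 CPM in Tumor. The highest library was Healthy 2 and the lowest Healthy 1, so the Healthy stage spanned all others. Its log2 fold changes by edgeR were 0.17 (SE 0.38), -0.07 (SE 0.38) and -0.23 (SE 0.38) for PanIN over Healthy, Tumor over Healthy and Tumor over PanIN, with adjusted p from 0.935 to 1. Without Healthy 2 the Tumor and PanIN values over Healthy were 0.50 and 0.73, and without Healthy 1 they were -0.35 and -0.12. Il18bp, the secreted decoy that binds IL-18, was at 5.75, 3.12 and 4.72 CPM in Healthy, 7.26, 5.27 and 8.15 CPM in PanIN and 18.1, 7.22 and 10.8 CPM in Tumor. Its Tumor libraries lay above its Healthy libraries (log2 fold change 1.41, SE 0.40, edgeR adjusted p = 0.168, DESeq2 adjusted p = 0.0275). The log2 TPM ratio of Il18bp to Il18 was -2.65 ± 1.17, -2.82 ± 0.42 and -1.41 ± 0.80 (SD, n = 3; exact permutation p = 0.179, adjusted 0.32).

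Il10 (ENSMUSG00000016529, chromosome 1, 131019845 to 131024974) was close to the limit of detection. The estimated counts were 0, 30 and 3 for Healthy, 4, 18 and 15 for PanIN and 23, 1 and 3 for Tumor. Each stage held a library at 4 counts or fewer and a library at 18 or more. The log2 fold changes lay between -0.37 and 0.16 with SEs of 1.62 to 1.63, so a difference was not detectable at this depth and spread. Without Healthy 2 the Tumor and PanIN values over Healthy were 3.31 and 3.68, set against Healthy libraries of 0 and 3 counts, so they depend on the prior count. Its biological coefficient of variation was 126%, against 26.2% for Ebi3, 27.6% for Il1b, 53.2% for Il12b and a median of 48.1% over all genes tested.

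Taken as a list, no member was called in any comparison by edgeR after adjustment over all 24133 genes, where 0% of all genes were called for PanIN over Healthy, 0.0249% for Tumor over Healthy and 0.0124% for Tumor over PanIN. The test of any difference among stages also called 0 of 8 members, against 0.0207% of all genes. At an unadjusted p under 0.05, 5 of 8 members were higher in Tumor than in Healthy (Il12b, Il27, Il15, Il15ra and Il1b), where 6.82% of all genes were. For PanIN over Healthy 2 of 8 were higher (Il27 and Il15ra), against 4.82% of all genes. For Tumor over PanIN 2 of 8 were higher (Ebi3 and Il1b), against 2.02% of all genes. No member was lower at that level in any comparison, where 5.65% (PanIN over Healthy), 11% (Tumor over Healthy) and 2.52% (Tumor over PanIN) of all genes were. The Tumor and PanIN comparisons with Healthy share the Healthy libraries, so their counts are not separate evidence. The members were chosen with earlier results of these data known, which limits how their counts can be read beside all genes.

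Few members had stages that did not overlap. Il1b and Il27 were higher in every Tumor library than in every Healthy library, 2 of 8 where 9.02% of all genes were. For Tumor over PanIN, Il1b and Ebi3 were, 2 of 8 against 8.33%, and for PanIN over Healthy 0 of 8 against 7.4%. Healthy 1, PanIN 1 and Tumor 1 share a title code, and for Il12b, Il15 and Il15ra the Tumor over Healthy difference was smaller within it than outside it; that contrast was not tested. Within the code, with 1 library per stage and no test, the log2 difference was 0.74 for Il12b, 0.48 for Il15, 1.30 for Il15ra, 1.88 for Il27 and 0.62 for Ebi3. In the other 6 libraries the fitted values were 2.59, 1.62, 2.24, 1.91 and 0.59, so all 5 were positive in both. None of the 5 was called in those 6 libraries (edgeR adjusted p from 0.407 to 0.523). The median log2 fold change of the 8 members was 0.60 for PanIN over Healthy, 1.31 for Tumor over Healthy and 0.45 for Tumor over PanIN, beside -0.10, -0.11 and -0.05 over all genes. For PanIN and Tumor over Healthy the members' medians were 1.15 and 1.93 without Healthy 1, 0.58 and 1.23 without Healthy 2, and 0.07 and 0.84 by limma-voom. On log2(TPM + 0.1) the Tumor over PanIN median was -0.01 with 4 of 8 members positive, beside -0.34 over all genes, so its sign depended on the scaling.

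**Figure D4:**
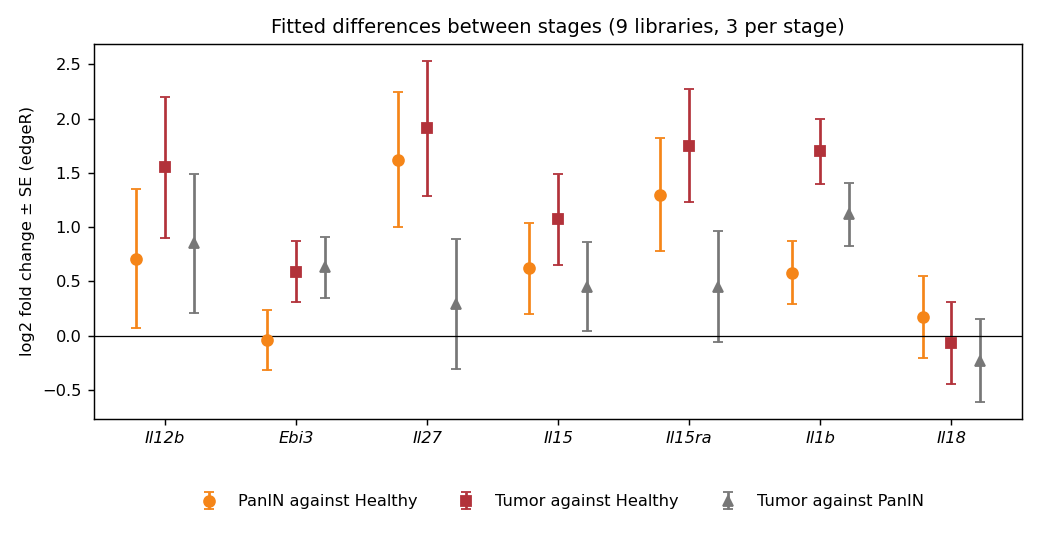
Fitted log2 fold changes (edgeR, 9 libraries) with bars of ± 1 SE for 7 members in the 3 comparisons; Il10, with SEs over 1.6, is left out. Il1b at 1.70 has the narrowest bar among the members above 1 in Tumor over Healthy, and Il18 lies near 0 in all comparisons.

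DESeq2 called 3 of 8 members higher in Tumor than in Healthy (Il27, Il15ra and Il1b), against 2.32% of all genes it tested, and none for PanIN over Healthy (0.687%) or Tumor over PanIN (0.0458%). edgeR with no count filter called 2 (Il15ra and Il1b), against 0.978%. Limma-voom with sample weights called Il1b alone for Tumor over Healthy, against 3.12%. It also called 2 for PanIN over Healthy (Il18 and Il10), against 5.78%; its weights were 4.32 for Healthy 1 and 0.172 and 0.269 for Healthy 2 and Healthy 3, and PanIN 2 had 3.81 against 0.793 and 1.17 for the other PanIN libraries, so its PanIN over Healthy calls rested mostly on Healthy 1 and PanIN 2. Without Healthy 1 or without Healthy 2, edgeR called 1 member, Il1b, against 0.128% and 1.94% of genes, and so it did with the shared title code as a term, against 0.0249%.

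Il12b and Il15 followed the level of Ccr7 closely over the 9 libraries. How many of all genes follow Ccr7 as closely is not given here, and the p-values below take no account of stage. In log2 CPM, Pearson's r with Ccr7 was 0.99 for Il12b and 0.98 for Il15, and Spearman's rho was 1 for both, so the 9 libraries stood in the same order for all 3 genes. The exact permutation p of r was 2.76e-06 for each, the smallest that 362880 pairings can give, and 1.1e-05 after adjustment over 8 relations. For rho the exact p was 5.51e-06. For Il15ra r was 0.88 (exact permutation p = 0.000725, adjusted 0.00193) and rho 0.90 (exact p = 0.00203, adjusted 0.00541). For Il1b r was 0.76 (exact p = 0.00502, adjusted 0.00966) and rho 0.87 (exact p = 0.00451, adjusted 0.00902). For Il27 r was 0.75 (exact p = 0.00604, adjusted 0.00966) and rho 0.73 (exact p = 0.0311, adjusted 0.0415). Ebi3 gave r = 0.47 and rho = 0.85, Il18 gave -0.56 and -0.30, and Il10 gave -0.34 and -0.15, with exact permutation p for r of 0.211, 0.133 and 0.418 and for rho of 0.00607 (adjusted 0.00972), 0.437 and 0.708.

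Healthy 2 and Healthy 3 were the libraries farthest from the median of Ccr7. Without them, r was 0.93 for Il12b (exact p = 0.000397), 0.96 for Il15 (exact p = 0.000198) and 0.96 for Ebi3 (exact p = 0.00437). For Il15ra it was 0.66 (exact p = 0.101), for Il1b 0.64 (exact p = 0.119) and for Il27 0.41 (exact p = 0.377). Those 3 relations were weaker without the 2 low libraries, over 7 libraries and a narrower range of Ccr7. The part of the 2 low libraries in them was not tested. In the 6 libraries without the shared title code, r was 0.98 for Il12b and for Il15 (exact p = 0.00139 each), 0.86 for Il15ra and 0.73 for Il1b (exact p = 0.0153 and 0.0694), and 0.71 for Il27 and 0.21 for Ebi3 (exact p = 0.0903 and 0.747). The shared code holds 3 libraries, too few for a correlation.

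**Figure D5:**
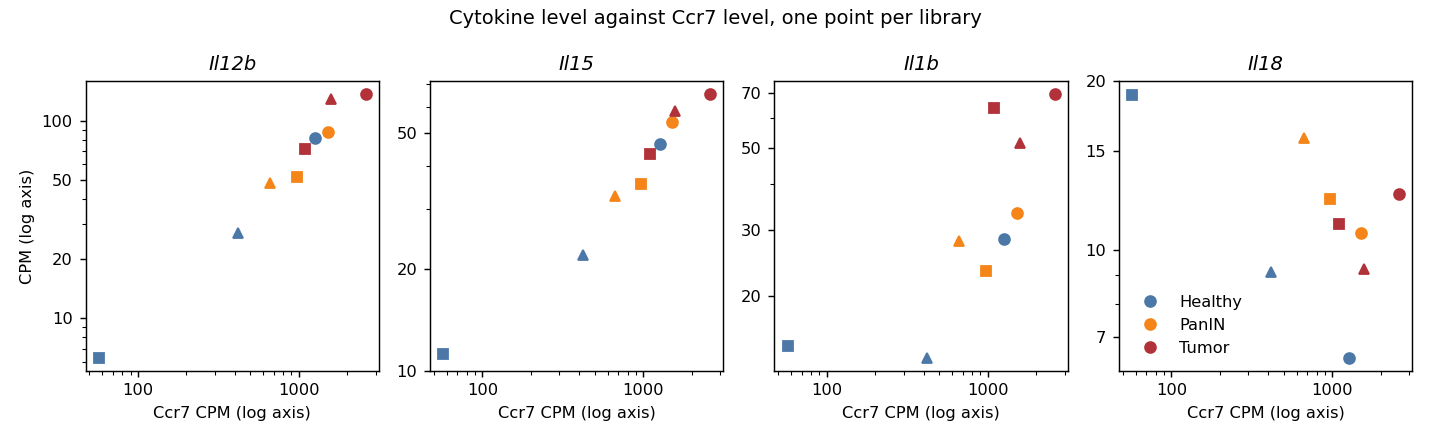
CPM of Il12b, Il15, Il1b and Il18 against CPM of Ccr7 (both axes log), 1 point per library, with colour for stage and shape for replicate number (circle 1, square 2, triangle 3). Il12b and Il15 follow one line through all stages. Il18 is highest in Healthy 2, where Ccr7 is lowest, but is at 9.14 CPM in Healthy 3, the next lowest in Ccr7. The Il1b points of Tumor 2 and Tumor 3 lie above the Healthy and PanIN libraries of like Ccr7. Tumor 1, at 2602 CPM of Ccr7, has no library of like Ccr7 beside it, the next being Tumor 3 at 1584 CPM.

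With the log2 CPM of Ccr7 as a term in the edgeR fit, an alternative added after seeing the data, the Tumor over Healthy log2 fold change of Il12b was 0.24 (SE 0.25), that of Il15 0.17 (SE 0.23), that of Il15ra 0.77 (SE 0.45) and that of Il27 1.22 (SE 0.78). Il1b stood at 1.30 (SE 0.31, adjusted p = 0.0463), the only member called in that fit, where 0.282% of all genes were called higher. The part that the share of mature cells had in the stage differences was not tested.

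Among 12011 protein-coding genes, the 3 whose log2 CPM followed Il12b most closely over the 9 libraries were Zdhhc14 (r = 0.996), Il15 (r = 0.993) and Pcgf5 (r = 0.991). Those closest to Il15 were Il12b (r = 0.993), Rab20 (r = 0.993) and Pcgf5 (r = 0.992). Zdhhc14 is a palmitoyltransferase, Pcgf5 a Polycomb subunit and Rab20 a small GTPase. Those closest to Il1b were Phyh, a peroxisomal hydroxylase (r = 0.978), Tspo, a mitochondrial outer membrane protein (r = 0.978), and Sri, which encodes the calcium-binding protein sorcin (r = 0.974). They were picked as the highest of 12011 over libraries that differ together in stage and maturity, so these values are descriptions.

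The other cytokines of these families were mostly low or absent. Of 22, 12 passed the count filter and none was called by edgeR in any comparison; 1 was higher at an unadjusted p under 0.05 for PanIN over Healthy (4.82% of all genes were) and 3 for Tumor over Healthy (6.82% of all genes). Clcf1, a cytokine of the IL-6 family, was at 8.95, 9.26 and 3.58 CPM in Healthy, 13.2, 34.4 and 36.1 CPM in PanIN and 25.3, 12.9 and 22.5 CPM in Tumor. Its 6 PanIN and Tumor libraries lay above all of Healthy (PanIN over Healthy log2 fold change 1.95, SE 0.46, edgeR adjusted p = 0.311, DESeq2 adjusted p = 0.00911). In this list and the other pathway lists below, genes were named for having among the lowest p of a comparison. Libraries that do not overlap therefore add no support for them. Over all genes, every PanIN library exceeded every Healthy library for 7.4%, and every Tumor library did for 9.02%. Osm, which encodes oncostatin M, was at 1.84 ± 0.884, 3.56 ± 1.83 and 5.56 ± 4.29 CPM (SD, n = 3), and Il6 at 0.477 ± 0.211, 0.763 ± 0.38 and 1.73 ± 1.5 CPM. Il7 was at 0.948 ± 0.853, 0.807 ± 0.663 and 2.27 ± 1.34 CPM. Of 5 soluble antagonists and decoys, 4 were tested, and Il1rn and Il18bp were the 2 higher in Tumor than in Healthy at an unadjusted p under 0.05, against 6.82% of all genes.

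Of 13 receptor chains for these cytokines, all tested, 0 were higher for PanIN over Healthy and 1 for Tumor over Healthy at an unadjusted p under 0.05, against 4.82% and 6.82% of all genes. The 1 was Il2rg, the common gamma chain through which IL-15 signals, at 160, 60.5 and 85.7 CPM in Healthy, 186, 148 and 99.9 CPM in PanIN and 278, 154 and 194 CPM in Tumor (log2 fold change 1.03, SE 0.37, edgeR adjusted p = 0.186). Il10ra, the ligand-binding chain of the IL-10 receptor, was at 188 ± 73.9, 289 ± 56.9 and 250 ± 60.9 CPM, and Il12rb2, a chain of the IL-12 receptor, at 12.1 ± 6.56, 7.46 ± 3.96 and 9.50 ± 0.242 CPM (SD, n = 3). Il1rap, the accessory chain of the IL-1 receptor, was at 10.2 ± 3.27, 7.59 ± 1.70 and 5.98 ± 2.01 CPM. Il6st, the signalling chain of the IL-27 receptor, was at 106 ± 14.4, 115 ± 22 and 86.7 ± 3.12 CPM.

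Downstream of the receptors, none of the 15 kinases, STATs and SOCS genes was called by edgeR, with 4 higher for PanIN over Healthy and 6 for Tumor over Healthy at an unadjusted p under 0.05, against 4.82% and 6.82% of all genes. Stat4, the STAT through which IL-12 signals, was at 36.1, 3.70 and 24.5 CPM in Healthy, 50.3, 52.6 and 26.2 CPM in PanIN and 150, 80.5 and 101 CPM in Tumor. The Tumor libraries lay above the other 6 (Tumor over Healthy log2 fold change 2.36, SE 0.60, edgeR adjusted p = 0.168, DESeq2 adjusted p = 0.0041). Socs3, a feedback inhibitor of cytokine receptors, was at 14.2, 12.9 and 11.8 CPM in Healthy, 22.1, 30.7 and 37.6 CPM in PanIN and 38.2, 25.2 and 30.5 CPM in Tumor. All PanIN and Tumor libraries lay above Healthy, with log2 fold changes of 1.21 (SE 0.26, edgeR adjusted p = 0.26) for PanIN and 1.27 (SE 0.26, edgeR adjusted p = 0.142) for Tumor over Healthy. Stat2, of the type I interferon pathway, was highest in PanIN, at 205 ± 88.4 CPM against 77.0 ± 22.4 in Healthy and 117 ± 29.3 in Tumor (SD, n = 3).

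Of the 14 genes of inflammasomes and of cytokine processing, none was called by edgeR. At an unadjusted p under 0.05, 4 were higher for PanIN and 3 for Tumor over Healthy (4.82% and 6.82% of all genes). Casp4, the mouse caspase-11 that senses cytosolic lipopolysaccharide, was at 11.3, 9.63 and 6.93 CPM in Healthy, 20.9, 17.7 and 17.4 CPM in PanIN and 29.7, 21.1 and 27.6 CPM in Tumor. Its 3 stages did not overlap with one another, with a Tumor over Healthy log2 fold change of 1.49 (SE 0.27, edgeR adjusted p = 0.124, DESeq2 adjusted p = 0.000184). Casp4 was named for its low p, so this separation is not further support. How many of all genes separate in this way was not counted. Gsdmd, the pore-forming gasdermin D, was at 89.2, 94.1 and 50.6 CPM in Healthy, 129, 140 and 185 CPM in PanIN and 170, 113 and 206 CPM in Tumor (Tumor over Healthy log2 fold change 1.06, SE 0.30, edgeR adjusted p = 0.168). P2rx7, the ATP-gated channel upstream of the inflammasome, was at 41.9 ± 26.6, 40.5 ± 13.3 and 25.1 ± 6.05 CPM (SD, n = 3).

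Among the 15 adaptors of IL-1 and Toll signalling, 1 was higher for PanIN and 3 for Tumor over Healthy at an unadjusted p under 0.05, where 4.82% and 6.82% of all genes were. Map3k8, a kinase of the Toll and IL-1 receptor pathways, was at 16.7, 11 and 6.33 CPM in Healthy, 31.3, 25.9 and 38.7 CPM in PanIN and 54.2, 22.6 and 36.0 CPM in Tumor. All PanIN and Tumor libraries lay above Healthy, with log2 fold changes of 1.5 (SE 0.38, edgeR adjusted p = 0.341) and 1.73 (SE 0.39, edgeR adjusted p = 0.168). Traf6, a ubiquitin ligase of the same pathways, was at 54.1 ± 18.5, 77.8 ± 9.76 and 87.2 ± 18.1 CPM, and Sigirr, an inhibitory receptor, at 23 ± 6.18, 35 ± 11.7 and 35.9 ± 4.28 CPM (SD, n = 3). The kinase Map3k7, at 49.3 ± 5.32, 50.8 ± 5.74 and 45.8 ± 5.52 CPM, and the inhibitory Irak3, at 1.40 ± 0.775, 2.18 ± 0.542 and 1.69 ± 0.437 CPM, had the lowest p of this list for Tumor over PanIN and did not pass.

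Of 20 transcription factors of cytokine genes, 4 were higher for PanIN and 9 for Tumor over Healthy at an unadjusted p under 0.05, where 4.82% and 6.82% of all genes were, and none was called by edgeR. Batf3, on which cDC1 development depends, was at 84.3, 91.6 and 58.3 CPM in Healthy, 111, 93.5 and 117 CPM in PanIN and 140, 124 and 165 CPM in Tumor. The Tumor libraries lay above all others (Tumor over Healthy log2 fold change 0.88, SE 0.23, edgeR adjusted p = 0.168, DESeq2 adjusted p = 0.0288). Irf4 stood at 11 ± 5.67, 18.0 ± 9.96 and 35.3 ± 13.9 CPM, and Irf7, the interferon-induced factor, at 93.0 ± 50, 277 ± 112 and 139 ± 42.7 CPM (SD, n = 3). Nfkbiz, a nuclear cofactor of NF-kappaB, was at 15.5 ± 9.94, 31.1 ± 4.07 and 30.9 ± 6.85 CPM, and Nfil3 at 12.1 ± 3.85, 11.9 ± 2.16 and 21.3 ± 12.7 CPM.

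Markers of other cells differed between libraries as well, and their part in the results was not tested. The 10 mature dendritic cell markers summed to 1077 to 7605 CPM in Healthy, 3642 to 8709 in PanIN and 7902 to 14687 in Tumor. B cell markers (12) summed to 206 to 480, 277 to 888 and 261 to 327 CPM, plasma cell markers (8) to 108 to 158, 159 to 226 and 164 to 391 CPM, and T and NK cell markers (14) to 46.5 to 253, 52.7 to 238 and 40.8 to 363 CPM. The 10 cDC2 markers summed to 103 to 208, 82.3 to 168 and 135 to 199 CPM, and the 8 plasmacytoid markers to 221 to 280, 191 to 235 and 175 to 240 CPM. Epithelial markers (8) were at 119 CPM in Tumor 1 and at 8.69 to 16.4 CPM in the other 8 libraries, and pancreatic acinar markers (10) at 0.787 to 3.18, 4.51 to 14.1 and 1.43 to 1.57 CPM. Without Tumor 1 the Tumor over Healthy log2 fold change of Il1b was 1.61 (SE 0.34).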

How the data were processed

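RNA-seq of 9 cDC1 libraries (3 per stage) was analysed from tables the authors deposited of estimated counts and of TPM per transcript. Estimated counts, as deposited, carry no normalization; the deposited TPM are scaled by transcript length and library. Per the submitters' processing notes the tool was Salmon and the build mm10; the file names mention sailfish, and the sources used here do not give versions, settings or use of strand. Of 136288 transcripts, 136176 matched GENCODE M21 and were summed to 53458 genes, and 112 were left out (at least 99.963% of counts kept). Sums were rounded and tested with edgeR 4.0.16 (R 4.3.3): filterByExpr (minimum count 10, total 15) left 24133 genes, TMM, 1 quasi-likelihood fit with stage as the only term, Benjamini-Hochberg over all genes, threshold 0.05. CPM use TMM factors.

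Partner ratios are differences of log2(TPM + 0.1), tested by exact permutation of the stage labels, whose smallest p is 0.00357. Relations with Ccr7 used exact permutation of log2 CPM over all pairings (SciPy 1.17.1). Alternatives used DESeq2 1.42.0, limma 3.58.1, other factors, filters and subsets of libraries; the 3 libraries of the shared title code alone, coding transcripts alone and a term for Ccr7 were added after seeing the data. The tests were checked on simulated data. Intervals and floors cover counting error only. No 2 libraries of the same stage agreed within sampling noise; pairs across stages were not compared.

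The 9 members and the 7 pathway and 11 marker lists were chosen with earlier results of these data known. Named were all members, the partner genes, per pathway list and comparison the genes called or otherwise up to 2 with the lowest p, Ccr7, Xcr1 and the genes most like Il12b, Il15 and Il1b (the 3 protein-coding genes with the highest r). In the annotation, 3 listed cytokines (Il36a, Il36b, Il36g) carry older symbols. Python 3.11.15, pandas 2.3.3 and matplotlib 3.10.9 were used for tables and figures.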

Additional observations from a re-analysis of the deposited data

How the results depend on the processing

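Of the alternative values of the members' log2 fold changes, 444 kept their direction and, where tested, their side of the threshold. Another 12 passed it where the reported fit did not, and 44 changed sign. These counts include the values within the shared title code, which carry no test and were sorted by sign alone. Against 0 in the reported fit, the number of members called for Tumor over Healthy was 3 by DESeq2, 2 with no count filter and 1 each by limma-voom, with the title code as a term and with a term for Ccr7, and 0 to 1 with 1 library left out. For PanIN over Healthy it was 2 by limma-voom, and for any difference among stages 2 with no count filter and 0 to 1 with 1 library left out. Calls in the pathway lists came from DESeq2 (1 to 3 per list where any) and from leaving out Healthy 2. By DESeq2, for PanIN over Healthy, they were 1 of the other cytokines, 2 of the kinases, STATs and SOCS, 1 adaptor and 1 transcription factor; for Tumor over Healthy they were 1, 2 antagonists, 2 kinases, STATs and SOCS, 2 inflammasome genes, 1 adaptor and 3 transcription factors. Without 1 library the kinases, STATs and SOCS and the transcription factors gave 0 to 2 for Tumor over Healthy, and the inflammasome genes and the adaptors 0 to 3.

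For PanIN over Healthy, where the reported values were 0.71 for Il12b, 0.62 for Il15 and 0.58 for Il1b, limma-voom gave -0.34 for Il12b, -0.19 for Il15 and -0.04 for Il1b; the term for Ccr7 gave -0.02 for Il12b; the TPM scales gave 0.30 and 0.31 for Ebi3; and the 6 libraries outside the shared code gave -0.01 for Il18 and -0.01 for Il10. For Tumor over Healthy, Il18 gave 0.09 and 0.10 on the TPM scales, 0.64 by limma-voom, 0.01 with the title code term, 0.88 with the Ccr7 term and 0.97 within the shared code. Il10 gave 0.04 on log2(TPM + 0.1), 2.89 by limma-voom, 5.30 with the Ccr7 term and 3.81 within the shared code, where 1 library is at 0 and the value depends on the prior count. For Tumor over PanIN, the TPM scales gave -0.01 and -0.03 for Il27 and -0.06 and -0.06 for Il15ra; the Ccr7 term gave -0.01 for Il27, 0.04 for Il18 and 1.26 for Il10; and the shared code gave 0.24 for Il18 and 2.07 for Il10. With 1 library left out, the ranges were -0.24 to 0.14 for Ebi3, -0.12 to 0.73 for Il18 and -0.41 to 3.68 for Il10 in PanIN over Healthy, -0.35 to 0.50 for Il18 and -2.30 to 3.31 for Il10 in Tumor over Healthy, and -0.12 to 0.65 for Il27 and -2.46 to 0.17 for Il10 in Tumor over PanIN. The Tumor minus Healthy difference of the Il15ra to Il15 ratio was -0.01 over coding transcripts, and that of Il1rn to Il1b was 0.01 as reported, -0.80 with 1 TPM added and -0.56 to 0.61 with 1 library left out. The cause was not tested.

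The TPM scales moved the median of all genes for PanIN over Healthy from -0.10 to 0.23 (with 0.1 TPM added), and for Tumor over PanIN from -0.05 to -0.34. Low counts limit Il12a and Il10. Where a fit leaves 2 libraries in a stage, they are assumed to vary like the others. No paired analysis was possible because the labels carry no replicate numbers shared between stages. The title code, shared by 1 library per stage, entered as a batch term whose values stand above. That term set the shared code against all other libraries together, although each of those has its own code. It therefore did not adjust for the other codes, which cannot be told apart from stage.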
